A study of Mus musculus with 6 samples.

Results

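The respiratory chain was examined gene by gene in naive B cells from mouse spleen, comparing TET2 Knock-Out with TET2 Wild-Type. Members were all gene names beginning with Ndufa, Ndufb, Ndufc, Ndufs, Ndufv, Uqcr, Cox4 to Cox8 or Atp5, the names Sdha to Sdhd, and the mitochondrial genes named mt-Nd, mt-Co, mt-Cytb or mt-Atp. Pseudogene names containing -ps were dropped. This gave 105 of the 41053 gene names in the count table, 13 encoded by mitochondrial DNA and 92 by nuclear genes. The 92 nuclear members comprised 74 widely expressed subunits, 8 isoforms known from particular tissues and 10 assembly or related factors that share the name stems.

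Both genotypes were represented by 3 libraries of RNA, numbered 2, 3 and 4, and all mice were C57BL/6. TET2 is an enzyme that oxidizes 5-methylcytosine in DNA. No age, sex or Cre driver was given in the labels used here. The labels do not say that libraries came from separate animals, so each p-value reflects variation among the 6 libraries, and part of it may be technical.

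Electrons from NADH enter the respiratory chain at complex I and those from succinate at complex II. They pass through complex III and cytochrome c to complex IV, which reduces oxygen. Complexes I, III and IV pump protons, and complex V, the ATP synthase, uses the resulting gradient to make ATP. Mitochondrial DNA encodes core subunits of complexes I, III, IV and V, while all of complex II and most subunits of the others are nuclear-encoded, so assembly needs products of both genomes.

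The knockout libraries held 39872470 to 45401781 counts and the wild-type libraries 35101788 to 43343789. Levels are CPM, counts scaled to TMM-adjusted library size, and a floor of 3 counts equalled 0.0679 to 0.0856 CPM depending on the library. Tet2 mRNA remained detectable in all libraries, with an edgeR adjusted p of 0.408 for the difference, and the deleted stretch was not given. Summed B cell markers were 12230 to 14450 CPM in knockout cells and 12140 to 12530 CPM in wild-type cells, and summed granulocyte markers were at most 0.698 CPM in knockout cells and 0.182 CPM in wild-type cells. The 8 T cell markers summed to 294 to 322 CPM in the knockout libraries, against 259 to 291 CPM in the wild-type libraries, most of it Cd2, with Cd3d at no more than 0.636 CPM. Cd2, Cd3d, the myeloid Itgax and the NK gene Klrb1c were higher in every knockout than in every wild-type library, and the myeloid Lyz2 was lower, at 6.45, 6.54 and 4.93 CPM in the knockout libraries and 7.33, 10.1 and 9.53 CPM in the wild-type libraries. Of all tested genes, 10.2% were higher and 8.28% lower in this way. The NK gene Prf1 averaged 1.17 CPM in knockout cells and 1.46 CPM in wild-type cells, with overlap. Summed NK markers were 1.34 to 2.19 CPM in knockout cells and 1.83 to 1.93 CPM in wild-type cells. Summed myeloid markers were 27.1 to 37.2 CPM in knockout cells and 30.2 to 34.3 CPM in wild-type cells. Igj, the immunoglobulin J chain of plasma cells, was at 21.7 ± 10.9 CPM in knockout cells and 8.72 ± 4.26 CPM in wild-type cells (SD, n = 3 each), with overlap. Of 4 tested plasma cell markers, 1, Igj, had a positive log2 change and 3 a negative one. Among the latter, Sdc1 averaged 8.56 CPM in knockout cells and 9.31 CPM in wild-type cells. Summed plasma cell markers were 147.7 to 170.7 CPM in knockout cells and 128.2 to 167.5 CPM in wild-type cells. No marker was called by edgeR, and their part in the results was not tested. The Y-linked Ddx3y reached 38.0 to 85.9 CPM in knockout against at most 0.0455 CPM in wild type, and Xist, transcribed from the inactive X, measured 852, 886 and 802 CPM in the knockout libraries, against 1536, 1487 and 1442 CPM in wild-type libraries (edgeR adjusted p = 0.00251). Each knockout library thus held both Y-linked RNA and Xist. Sex and genotype cannot be told apart here. In these bulk samples, fewer cells of a type and less RNA per cell cannot be told apart either.

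Sequences are shown first for the mitochondrially encoded members, because near-identical nuclear DNA bears on how they could be counted. A stretch of chromosome 1 (chr1:24611535-24616197, GRCm38) carries 7 annotated genes that match mitochondrial subunit genes. The match covered 99.56% of mt-Co2 without a difference, and 99.14% of mt-Nd3 with 1 difference. The first 60 bases of both genes and of their chromosome 1 counterparts, from GENCODE vM21 transcripts, are given 5′ to 3′, with a capital at the base that differs.

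mt-Co2, chrM:7013-7072, plus strand: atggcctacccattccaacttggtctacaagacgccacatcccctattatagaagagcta
Gm28661, chr1:24615506-24615565, minus strand: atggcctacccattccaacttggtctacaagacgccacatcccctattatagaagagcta
mt-Nd3, chrM:9459-9518, plus strand: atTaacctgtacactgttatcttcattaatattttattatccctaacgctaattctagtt
Gm28438, chr1:24613060-24613119, minus strand: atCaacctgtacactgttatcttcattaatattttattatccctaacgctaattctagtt

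The mt-Co2 pair was identical over all 681 aligned bases. The mt-Nd3 pair differed only by T3C over 345 aligned bases, with positions counted from 1 at the 5′ end of mt-Nd3 and the mitochondrial base given first.

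Promoters are shown because most nuclear subunits shared a direction of difference. RefSeq promoter entries (GRCm38.p6) matched 73 of 92 nuclear members. A gene was counted for a word if any of its promoter entries held it on either strand. The word GCGCATGC, the core of the sequence bound by the transcription factor NRF1, was found for 16.44% of these 73 members and for 3.05% of all 27025 genes with an entry. CCGGAAGT, a word bound by ETS-family factors such as GABP, occurred for 6.85% of these members and 4.31% of all such genes. ATGGCGGC, the core of a YY1 word, occurred for 8.22% of these members and 2.60% of all such genes. The general promoter words CCAAT and TATAAA occurred for 43.84% and 9.59% of these members, against 41.06% and 15.67% of all such genes. No word contains another, and each match is a description of letters, not of a bound site. Members with a negative log2 change also held these words, among them Atp5g2 and Atp5l the NRF1 word and Ndufs3 the ETS word. All printed promoters belong to genes with a positive log2 change, and a relation of words to direction was not tested. The last 100 bases before the start site are given 5′ to 3′ for a pair of subunit genes with the NRF1 word and a pair with the ETS word, with the matched letters of these words in capitals.

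Ndufa11, chr17:56717662-56717761, plus strand: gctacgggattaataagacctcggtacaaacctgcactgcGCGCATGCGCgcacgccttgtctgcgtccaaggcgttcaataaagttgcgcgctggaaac
Atp5k, chr5:108434400-108434499, minus strand: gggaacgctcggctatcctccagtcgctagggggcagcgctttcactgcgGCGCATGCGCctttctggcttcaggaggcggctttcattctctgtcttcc
Uqcrh, chr4:116075071-116075170, minus strand: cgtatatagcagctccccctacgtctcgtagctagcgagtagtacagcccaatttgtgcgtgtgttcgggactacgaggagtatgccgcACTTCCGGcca
Uqcr11, chr10:80406822-80406921, minus strand: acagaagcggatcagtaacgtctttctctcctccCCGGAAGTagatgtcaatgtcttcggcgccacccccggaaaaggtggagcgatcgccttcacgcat

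In Ndufa11 and Atp5k the NRF1 core matched on both strands with overlap, so the capitals run over both matches. The Uqcrh match lies on the other strand and therefore reads as the reverse complement. Words were counted over promoter entries of 300 bases, but capitals mark only matches within the 250 bases before the start site. Uqcr11 was also counted as carrying the NRF1 word, but no such match lay wholly within the printed bases, so none is in capitals.

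No respiratory chain gene passed the test between all knockout and all wild-type libraries. Of 105 members, 95 passed the filter on low counts, and 0 of 95 had an adjusted p under 0.05 (edgeR quasi-likelihood test, Benjamini-Hochberg over 13604 genes), where 0.404% of all tested genes were called. limma-voom also called 0 members, where it called 0.331% of all genes. DESeq2 called 2, Cox4i1 higher and Cox7c lower, where 2.57% of all genes were called. With no filter beyond 1 count edgeR called those same genes, beside 1.14% of all genes. A threshold of 0.1 gave 0 members and 0.595% of all genes, and a replicate block gave 0 members and 0.625% of all genes. At an unadjusted p under 0.05 there were 18 members, or 18.95%, where the share over all tested genes was 13.4%. The fitted log2 change was positive for 82 of 95 members, or 86.32%, against 48.82% of all tested genes. Its median was 0.19 over the members and -0.01 over all tested genes.

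The nuclear-encoded subunits had a median log2 change of 0.20, with 65 of 74 positive. The mitochondrially encoded subunits had a median of 0.16, with 10 of 10 tested positive. The 5 tested with under 5% of the transcript in near-identical copies had a median of 0.13. Among members with a mean log2 CPM of at least 5, the difference of the medians, mitochondrial minus nuclear, was -0.07. Over all tested subunits the difference was -0.04. It ranged from -0.09 without wild-type library 2 to -0.02 without wild-type library 4, and was 0.01 in libraries 2 and 3 alone, so its direction was not stable. The mean log2 CPM of the mitochondrially encoded set exceeded that of the nuclear set by 2.59, 2.56 and 2.48 in knockout libraries 2, 3 and 4, and by 2.46, 2.56 and 2.65 in wild-type libraries 2, 3 and 4. Over these 10 genes the knockout values lay within the wild-type range, so this gap did not separate the genotypes. The 10 include mt-Co2, mt-Co3 and mt-Atp6, low and in copied sequence. In mean log2 CPM, the 7 over 100 CPM deviated from their 6-library mean by 0.22, -0.0041 and 9.4e-05 in knockout libraries 2, 3 and 4. Wild-type deviations were -0.27, -0.17 and 0.22. Nuclear subunits deviated by 0.13, 0.016 and 0.13 in knockout and -0.25, -0.18 and 0.16 in wild type. With those 7, the knockout gaps reached beyond the wild-type range at either end.

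The complexes also had similar medians among their nuclear subunits. Complex I had a median log2 change of 0.20 (32 of 36 positive), complex II 0.24 (4 of 4), complex III 0.18 (8 of 8), complex IV 0.17 (8 of 11) and complex V 0.22 (13 of 15). The factors had a median of 0.10, with 6 of 10 positive. Complex IV had the widest range, reaching 0.41 for Cox4i1 and -0.54 for Cox7c.

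**Figure D1:**
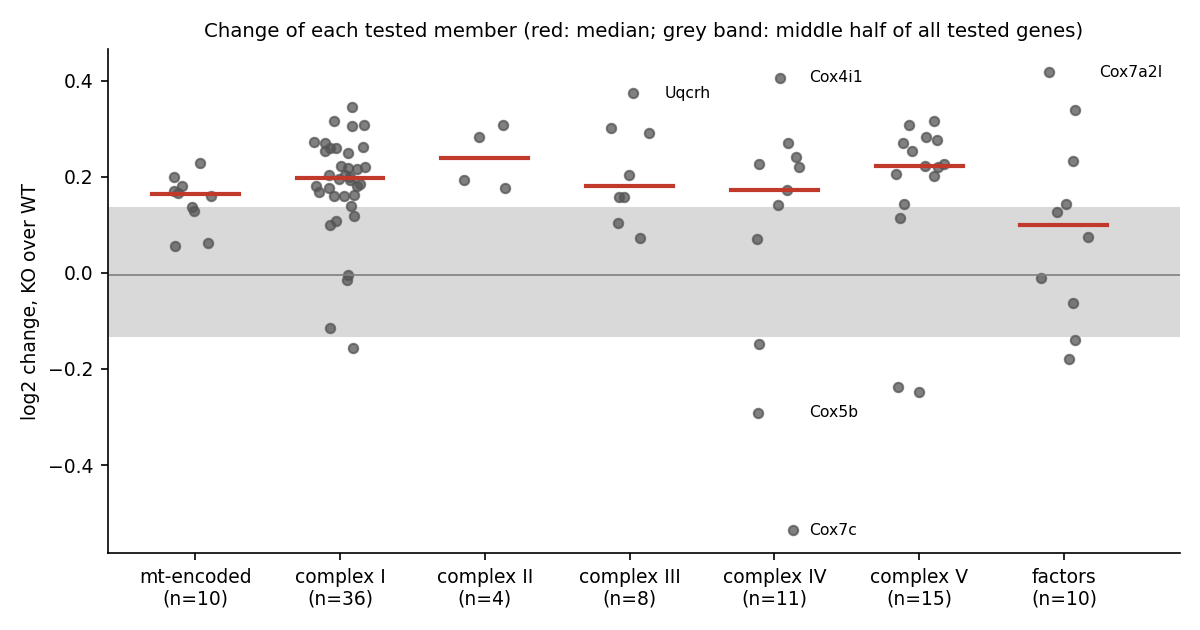
Fitted log2 change, KO over WT, of each tested member except the tissue isoform Cox7a1, with mitochondrially encoded subunits, the nuclear subunits of complexes I to V and the factors side by side; red lines are medians and the grey band is the interquartile range of all tested genes. The 5 complex medians lie between 0.17 and 0.24, and Cox7c at -0.54 is the lowest member.

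Wild-type library 4 stood at the knockout level, well above wild-type libraries 2 and 3. Summed over nuclear subunits, the level was 6545, 6109 and 6362 CPM in knockout libraries 2, 3 and 4, against 4904, 5147 and 6315 CPM in wild-type libraries 2, 3 and 4. The means were 6338 ± 219 CPM in knockout cells and 5455 ± 755 CPM in wild-type cells (SD, n = 3 each). Only wild-type library 4 overlapped the knockout range.

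Counts of single genes describe the same split in the same libraries, after it was seen, and are no separate support for it. All knockout libraries exceeded both wild-type libraries 2 and 3 for 75 of 95 members, where this held for 24.3% of all tested genes. For 58 of 95 members wild-type library 4 was in addition at or above the lowest knockout library, where the share of all genes was 14.1%. Between libraries numbered 2 and 3 the median difference, knockout minus wild type, was 0.34 in log2 CPM. Between the libraries numbered 4 it was -0.04, and 37 of 95 members were positive. The mitochondrially encoded subunits had medians of 0.36 in libraries 2 and 3 and -0.22 in libraries 4, where 0 of 10 were positive.

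**Figure D2:**
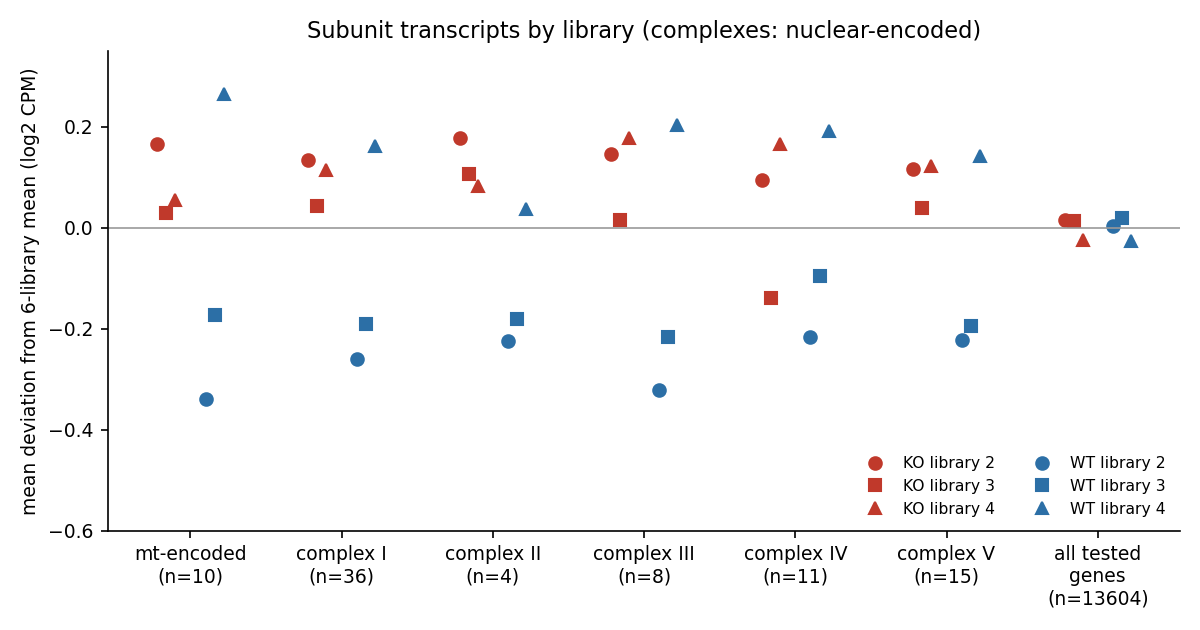
Mean deviation of each gene set from its own 6-library mean, in log2 CPM, with knockout libraries in red on the left and wild-type libraries in blue on the right of each set; symbols mark the library number and n is the number of tested genes. Wild-type libraries 2 and 3 are below 0 in every respiratory set, whereas wild-type library 4 is above 0 in all of them.

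Leaving out wild-type library 4 changed the result. In that fit 44 members were called higher and 0 lower by edgeR, where 4.53% of all tested genes were called higher and 1.94% lower. The 44 comprised 42 nuclear subunits, 1 mitochondrially encoded subunit and 1 factor. In libraries 2 and 3 alone, with a pair of libraries per genotype, 63 members were higher and 2 lower, beside 13.6% and 10.4% of all genes. With a term for the libraries numbered 4, the calls were 5 higher (Atp5g3, Cox4i1, Cox7a2l, Sdhd and Uqcrh) and 1 lower (Cox7c), beside 2.59% and 1.81% of all genes. Leaving out knockout library 4 gave 1 call, Cox7c lower, beside 0.626% of all genes lower and 0.424% higher. Compared across genotypes, the libraries numbered 4 were called higher than libraries 2 and 3 for 12 members and lower for 0, beside 7.83% and 6.95% of all genes. This contrast averages the genotypes. The median difference of library 4 from libraries 2 and 3 over members was 0.43 in log2 CPM in wild type and 0.03 in knockout.

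The interaction of genotype with the libraries numbered 4, a model added after the data were seen, describes the same split and is no independent evidence of it. Each genotype has 1 library numbered 4, so libraries 2 and 3 alone gave the spread. It called 15 of 95 members (edgeR, adjusted p under 0.05), where 1.19% of all genes were called. In all 15 the knockout excess was larger in libraries 2 and 3. They were Ndufa2, Ndufa3, Ndufa5, Ndufa13, Ndufb9, Ndufs4 and Ndufs8 of complex I, Uqcrh of complex III, Cox6b1, Cox7b, Ndufa4 and mt-Co1 of complex IV, and Atp5e, Atp5j2 and Atp5o of complex V. Cox6b1, a small subunit facing the intermembrane space, is given as an example picked from these calls. Its level was 123, 109 and 116 CPM in knockout libraries 2, 3 and 4, against 79.8, 82.2 and 127 CPM in wild-type libraries 2, 3 and 4. The highest value of all was thus in a wild-type library.

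**Figure D3:**
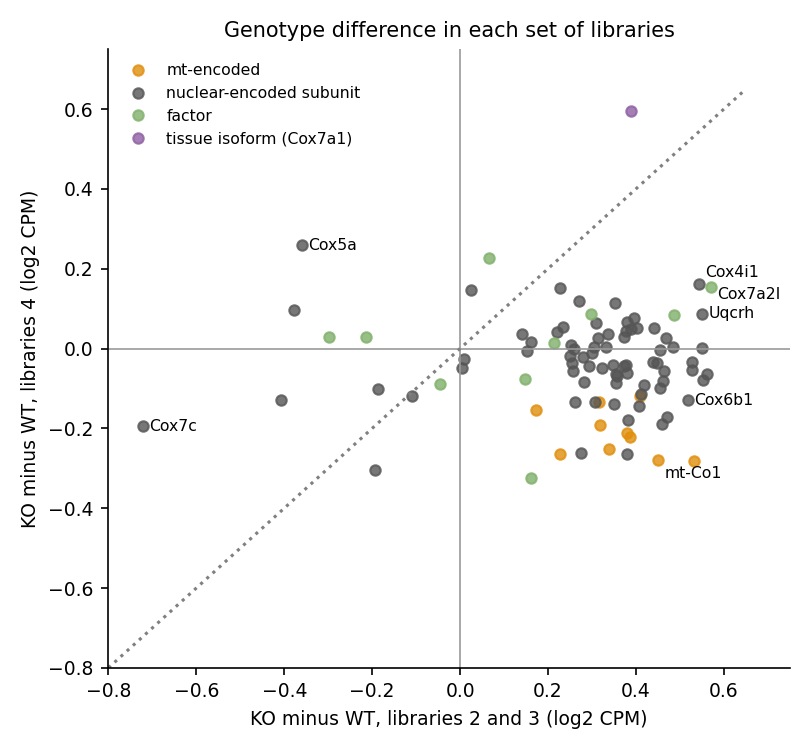
Difference in log2 CPM, KO minus WT, of each tested member in libraries 2 and 3 (horizontal axis) and in libraries 4 (vertical axis); the dotted line marks equal differences. Most members lie right of 0 and below the dotted line, and the 10 mitochondrially encoded genes (orange) all lie below 0 on the vertical axis.

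Complex I takes electrons from NADH. Per kilobase of exon, the highest nuclear subunits were Ndufa6, Ndufa2 and Ndufb11, accessory subunits, at 141, 122 and 95.3 CPM per kilobase in knockout and 123, 98.3 and 83.8 in wild type. The smallest p among higher subunits belonged to Ndufb10, an accessory subunit of the membrane arm. It measured 69.1, 69.7 and 60.4 CPM in the knockout libraries 2, 3 and 4, against 52.2, 55.0 and 59.2 CPM in wild-type libraries. The groups did not overlap, but the log2 change of 0.26 (SE 0.09) missed the threshold (edgeR adjusted p = 0.267). Ndufa10, another accessory subunit, was at 73.2 ± 5.14 CPM in knockout cells and 62.7 ± 1.34 CPM in wild-type cells (SD, n = 3 each), also without overlap (edgeR adjusted p = 0.277).

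Of 36 nuclear subunits of complex I, 4 had a negative log2 change. Ndufs3, a core subunit of the matrix arm, measured 31.3, 27.5 and 30.7 CPM in the knockout libraries, against 33.9, 32.9 and 32.9 CPM in wild-type libraries. All knockout values were below all wild-type values (log2 change -0.16, SE 0.08, edgeR adjusted p = 0.456). Ndufab1, the mitochondrial acyl carrier protein, was at 20.1 ± 0.988 CPM in knockout cells and 21.8 ± 1.87 CPM in wild-type cells. The remaining ones, the core subunits Ndufs1 and Ndufs7, had log2 changes of -0.01 each. Without wild-type library 4 both were positive, at 0.0063 and 0.071.

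Complex II, succinate dehydrogenase, is also an enzyme of the TCA cycle and has no mitochondrially encoded subunit. In it 3 of 4 subunits did not overlap between genotypes, the exception being Sdhb, and 10.2% of all tested genes were higher in every knockout than in every wild-type library. Sdhc, a membrane anchor, measured 65.3, 64.1 and 59.9 CPM in the knockout libraries, against 46.9, 48.5 and 57.8 CPM in wild-type libraries. Every knockout value was higher, and the log2 change was 0.31 (SE 0.09, edgeR adjusted p = 0.246). Sdhd, the other anchor, averaged 80.1 ± 2.37 CPM in knockout cells and 65.9 ± 8.28 CPM in wild-type cells, with an edgeR adjusted p of 0.268 over all libraries and 0.0475 with the term for libraries 4. Sdha, the flavoprotein, averaged 314 ± 22.0 CPM in knockout cells and 278 ± 2.71 CPM in wild-type cells (SD, n = 3 each). Sdhb, the iron-sulfur subunit, overlapped: it measured 102, 96.4 and 103 CPM in the knockout libraries, against 76.3, 84.4 and 102 CPM in wild-type libraries. Per kilobase Sdha was highest of the 4, at 80.9 CPM per kilobase in knockout and 71.5 in wild type.

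Complex III passes electrons to cytochrome c. Its hinge subunit Uqcrh, whose promoter is shown above, measured 167, 155 and 171 CPM in the knockout libraries 2, 3 and 4, against 106, 114 and 160 CPM in wild-type libraries. Wild-type library 4 exceeded knockout library 3, so the groups overlapped. The log2 change was 0.37 (SE 0.14, edgeR adjusted p = 0.317), and 0.58 without wild-type library 4 (edgeR adjusted p = 0.00649). Uqcrc2, a core protein, averaged 185 ± 8.19 CPM in knockout cells and 152 ± 25.6 CPM in wild-type cells. Uqcrc1, the other core protein, averaged 174 ± 1.59 CPM in knockout cells and 156 ± 10.1 CPM in wild-type cells without overlap, as 1 of 8 complex III subunits, a share near the 10.2% of all tested genes. Averaged over both genotypes, Uqcrh, Uqcrc1 and Uqcrc2 were also the highest per kilobase, at 133, 105 and 74.0 CPM per kilobase in knockout and 102, 94.0 and 60.5 in wild type. Uqcr10, a small subunit, was close to Uqcrc2, at 71.2 CPM per kilobase in knockout and 61.9 in wild type.

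Complex IV, cytochrome c oxidase, held both the smallest p in the set and the member with the most negative log2 change. Cox4i1, a regulatory subunit, measured 254, 245 and 246 CPM in the knockout libraries, against 166, 176 and 220 CPM in wild-type libraries. The groups did not overlap, and wild-type library 4 was the highest of its group. The log2 change was 0.41 (SE 0.10, edgeR adjusted p = 0.17), and the adjusted p was 0.0373 by DESeq2 and 0.021 in edgeR with the term for libraries 4. Cox7c, a small membrane subunit, measured 13.2, 12.1 and 17.1 CPM in the knockout libraries, against 22.3, 19.5 and 19.5 CPM in wild-type libraries. It was lower in every knockout library, with a log2 change of -0.54 (SE 0.14, edgeR adjusted p = 0.176, DESeq2 adjusted p = 0.0232). Cox5b, a matrix-facing subunit, averaged 19.2 ± 4.19 CPM in knockout cells and 23.5 ± 1.13 CPM in wild-type cells, also without overlap (edgeR adjusted p = 0.442).

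Per kilobase the highest complex IV subunits were Cox6b1, Cox4i1 and Ndufa4, the last first described as a complex I protein. They reached 230, 160 and 157 CPM per kilobase in knockout and 191, 121 and 135 in wild type. Cox7a2l, a factor of supercomplex assembly, measured 120, 110 and 116 CPM in the knockout libraries, against 73.3, 81.5 and 104 CPM in wild-type libraries. It did not overlap and had a log2 change of 0.42 (SE 0.12, edgeR adjusted p = 0.217), with 17.8% of its transcript in near-identical copies elsewhere.

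The tissue isoforms of complex IV were near or at 0. Cox4i2, Cox7b2 and Cox8c had no count in any library, which allows up to 0.0856 CPM. Cox6a2, Cox8b and Ndufa4l2 stayed at or below 0.0963 CPM, and Cox6b2 reached 0.499 CPM in knockout cells and 0.227 CPM in wild-type cells. Their widely expressed counterparts Cox4i1, Cox6a1, Cox6b1, Cox7a2, Cox7b, Cox8a and Ndufa4 were at 40.5 CPM or more in every library. Cox7a1, the heart and muscle form of subunit 7a, was the exception that passed the filter, at 0.749, 0.722 and 0.758 CPM in knockout libraries, against 0.475, 0.636 and 0.485 CPM in wild-type libraries. The groups did not overlap, but at this low level the log2 change of 0.47 (SE 0.26) missed the threshold (edgeR adjusted p = 0.467).

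Complex V makes ATP. Its catalytic core subunits Atp5a1 and Atp5b were the highest nuclear members of the complex per kilobase, at 216 and 172 CPM per kilobase in knockout and 178 and 147 in wild type. Atp5b measured 753, 699 and 731 CPM in the knockout libraries, against 568, 604 and 699 CPM in wild-type libraries. Atp5a1 averaged 678 ± 32.3 CPM in knockout cells and 558 ± 56.3 CPM in wild-type cells (SD, n = 3 each). Neither gene overlapped between genotypes, with edgeR adjusted p of 0.35 for Atp5b and 0.254 for Atp5a1. Atp5d and Atp5c1, subunits of the central stalk, came next and were close together, at 89.5 and 89.8 CPM per kilobase in knockout and 77.8 and 76.8 in wild type.

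The c ring of complex V is built from 1 mature protein encoded by 3 genes. Atp5g3 was by far the highest per kilobase, at 66.1 CPM per kilobase in knockout against 54.8 in wild type, where Atp5g1 and Atp5g2 were at or below 1.14. Its level was 153, 135 and 144 CPM in knockout libraries, against 112, 113 and 133 CPM in wild-type libraries. Its log2 change was 0.27 (SE 0.09, edgeR adjusted p = 0.254), without overlap. Atp5g1 averaged 2.27 ± 0.327 CPM in knockout cells and 1.91 ± 0.127 CPM in wild-type cells, and Atp5g2 averaged 1.63 ± 0.154 CPM in knockout cells and 1.91 ± 0.285 CPM in wild-type cells. Near-identical copies covered 13.21% of Atp5g1, 16.87% of Atp5g2 and 0% of Atp5g3, so the levels of the first pair are uncertain. Atp5l, a membrane subunit, averaged 0.844 ± 0.141 CPM in knockout cells and 1.01 ± 0.228 CPM in wild-type cells. Its counted exons span 511 bases, whereas its 10.11% in copies, from 15 genes, refers to a transcript of 6310 bases. The share of the counted bases in copies was not computed, so its level is uncertain too.

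Over all nuclear members tested, 17 were higher and 3 lower in every knockout library than in every wild-type library, where these shares were 10.2% and 8.28% of all tested genes. The 3 lower ones were Cox5b, Cox7c and Ndufs3. In these, 45.09%, 32.86% and 75.72% of the transcript matched another gene at 97% identity or more. Nuclear subunits with under 5% of the transcript in such copies had a median log2 change of 0.22, with 56 of 59 positive. Those with 5% or more had a median of 0.12, with 9 of 15 positive. Cox5a, also negative, shared 38.7% of its exon bases with Gm26631 on the opposite strand, and counting was without strand. The part of copies and overlaps in these differences was not tested.

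Per kilobase, 7 mitochondrially encoded genes exceeded every nuclear member, while the other 6 were lower than most of them. The 13 mitochondrially encoded genes together made up 2.60%, 2.27% and 2.27% of counts in knockout libraries 2, 3 and 4, against 1.93%, 2.02% and 2.69% in wild-type libraries. The means were 2.38 ± 0.190% in knockout and 2.21 ± 0.413% in wild type (SD, n = 3 each), and the groups overlapped through wild-type library 4. The mitochondrial rRNAs mt-Rnr1 and mt-Rnr2 had log2 changes of -0.04 each, with SE of 0.23 and 0.28. Their median difference in log2 CPM, knockout minus wild type, was 0.18 in libraries 2 and 3 and -0.31 in libraries 4.

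mt-Co1, the catalytic subunit of complex IV, measured 8030, 7065 and 6901 CPM in the knockout libraries, against 5326, 5709 and 8371 CPM in wild-type libraries. Wild-type library 4 was the highest of the 6 and wild-type library 2 the lowest. The log2 change was 0.18 (SE 0.17, edgeR adjusted p = 0.671), and 0.41 without wild-type library 4 (edgeR adjusted p = 0.0481). mt-Cytb, the mitochondrially encoded subunit of complex III, measured 6189, 5272 and 5231 CPM in the knockout libraries, against 4281, 4453 and 6096 CPM in wild-type libraries. It showed the same order of wild-type libraries and a log2 change of 0.17 (SE 0.15, edgeR adjusted p = 0.643).

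Of the core subunits of complex I, mt-Nd1 and mt-Nd2 reached 3959 and 2285 CPM per kilobase in knockout, against 3599 and 2091 in wild type, where mt-Co1 was at 4746 in knockout and 4187 in wild type. mt-Nd1 averaged 3789 ± 388 CPM in knockout cells and 3444 ± 629 CPM in wild-type cells, and mt-Nd2 averaged 2372 ± 279 CPM in knockout cells and 2170 ± 450 CPM in wild-type cells. mt-Nd4 averaged 1790 ± 153 CPM in knockout cells and 1594 ± 323 CPM in wild-type cells. mt-Nd5 averaged 2490 ± 267 CPM in knockout cells and 2385 ± 285 CPM in wild-type cells. mt-Nd6, the only one encoded on the light strand, averaged 836 ± 48.1 CPM in knockout cells and 804 ± 118 CPM in wild-type cells (SD, n = 3 each). mt-Nd5 and mt-Nd6 had the smallest log2 changes of the 10 tested, 0.06 each.

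The 6 remaining genes were below 3 CPM per kilobase in group means. mt-Co2, mt-Co3 and mt-Atp6 averaged 0.991, 1.21 and 1.83 CPM in knockout cells and 0.893, 1.05 and 1.61 CPM in wild-type cells. mt-Nd3, mt-Nd4l and mt-Atp8 stayed at or below 0.152 CPM in knockout cells and 0.257 CPM in wild-type cells and were not tested. Annotated copies on chromosome 1 covered 98.99% to 99.87% of mt-Co2, mt-Co3, mt-Atp6, mt-Nd3 and mt-Nd4l. They covered 63.57% of mt-Nd4 and 31.26% of mt-Co1. Counting copies anywhere at 97% identity or more, mt-Co1 was covered over its full length, by Gm13340 at 97.6% identity over 1545 bases. mt-Atp8 had no annotated copy on chromosome 1 although genes on either side of it did. The 7 copy genes on chromosome 1 themselves had 0 to 95 counts per library. Per the file headers, no option to count reads with several matches was used, so levels of these genes are not comparable with the others, and the part of the copies in them was not tested.

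**Figure D4:**
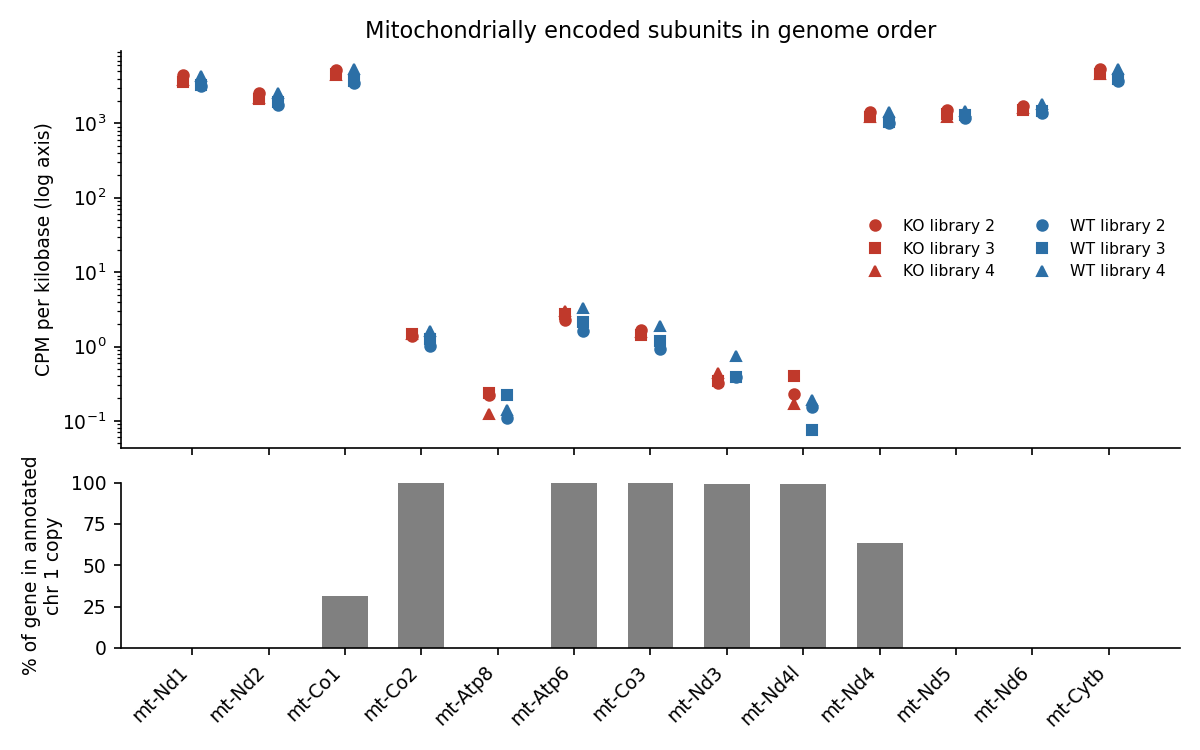
Upper panel: CPM per kilobase, on a log axis, of the 13 mitochondrially encoded subunits in genome order, knockout (red) left of wild type (blue), with symbols for the library number; lower panel: percent of each gene covered by an annotated chromosome 1 copy. The 5 genes covered over at least 98.99% lie orders of magnitude below mt-Co1 and mt-Cytb. The less similar copy of mt-Co1, Gm13340, is not drawn.

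Gene length also moved with these results. Nuclear members are short, with a median summed exon length of 1465 bases against 3352 for all tested genes, and 60 of 85 were at most 2159 bases long, as were the shortest 3 of 10 length classes of all genes. The median log2 change of all genes was 0.06 in the shortest class and -0.07 in the longest. Nuclear members in the shortest class had a median of 0.23. The part of length was not tested. The X-linked subunits Cox7b, Ndufa1 and Ndufb11 had log2 changes of 0.23, 0.32 and 0.19, within the range of the autosomal ones.

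**Figure D5:**
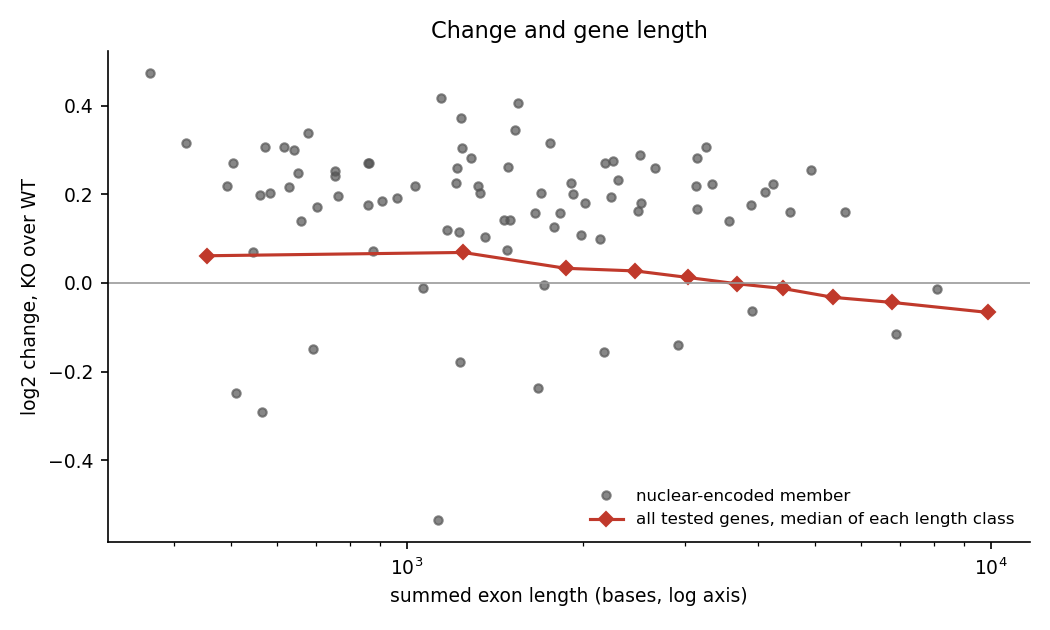
Log2 change, KO over WT, against summed exon length in bases (log axis) for each tested nuclear member (grey) and as the median of each of 10 length classes of all tested genes (red, placed at the median length of the class). Members lie mostly above the red line, which runs from 0.06 in the shortest class to -0.07 in the longest.

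Genes that work beside the chain were counted from related lists. None was called over all 6 libraries, where 0.404% of all tested genes were called. TCA cycle enzymes were positive for 13 of 13, with a median log2 change of 0.18, where 48.82% of all tested genes were positive. Their median difference in log2 CPM was 0.24 in libraries 2 and 3 and -0.01 in libraries 4. Without wild-type library 4, 3 were called higher, beside 4.53% of all tested genes higher and 1.94% lower. Mdh2, malate dehydrogenase, averaged 195 ± 9.87 CPM in knockout cells and 157 ± 14.9 CPM in wild-type cells (edgeR adjusted p = 0.193), and Cs, citrate synthase, averaged 268 ± 13.9 CPM in knockout cells and 230.0 ± 2.48 CPM in wild-type cells (edgeR adjusted p = 0.24). Mitochondrial ribosomal proteins were positive for 60 of 73, with a median of 0.13. Their median difference was 0.21 in libraries 2 and 3 and -0.02 in libraries 4. Without wild-type library 4, 16 of these genes were called higher and 1 lower, beside the same 4.53% and 1.94% of all tested genes. Mrpl16 averaged 28.3 ± 1.66 CPM in knockout cells and 21.6 ± 1.25 CPM in wild-type cells (edgeR adjusted p = 0.153). Mrps34 was lower in every knockout library, at 1.89 ± 0.576 CPM in knockout cells and 3.79 ± 0.911 CPM in wild-type cells (edgeR adjusted p = 0.193).

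Assembly factors had a median of 0.09, with 29 of 42 positive, and 7 genes of this list are also members counted above. Coa3, a complex IV assembly factor, averaged 38.1 ± 0.678 CPM in knockout cells and 29.6 ± 5.19 CPM in wild-type cells (edgeR adjusted p = 0.264). Cox20, another, had low counts, with 0.449 ± 0.387 CPM for knockout and 1.21 ± 0.250 CPM for wild type (edgeR adjusted p = 0.291). Genes of mitochondrial DNA maintenance and expression had a median of -0.03, with 11 of 25 positive. Polg, the mitochondrial DNA polymerase, measured 130.8, 130.8 and 128.1 CPM in the knockout libraries, against 164, 162 and 140 CPM in wild-type libraries. It was lower in all knockout libraries, with a log2 change of -0.26 (SE 0.08, edgeR adjusted p = 0.229). Polg2, its accessory subunit, measured 20.7, 21.5 and 24.9 CPM in the knockout libraries, against 26.9, 26.5 and 24.7 CPM in wild-type libraries (edgeR adjusted p = 0.376). Nuclear regulators had a median of -0.01, with 5 of 11 positive. Hif1a, the oxygen-regulated transcription factor, averaged 147 ± 6.06 CPM in knockout cells and 127 ± 4.49 CPM in wild-type cells (edgeR adjusted p = 0.248). Ppargc1a, a coactivator of mitochondrial genes, had 5.90 ± 0.609 CPM for knockout and 4.90 ± 0.818 CPM for wild type (edgeR adjusted p = 0.514). Cyc1, the cytochrome of complex III, averaged 89.7 ± 1.94 CPM in knockout cells and 86.8 ± 4.11 CPM in wild-type cells, and cytochrome c itself, Cycs, averaged 2.35 ± 0.155 CPM in knockout cells and 2.81 ± 0.629 CPM in wild-type cells. Neither was searched for near-identical copies, so the low level of Cycs is uncertain.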

How the data were processed

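The authors deposited counts, unnormalized whole numbers of fragments per gene name, with a summed exon length (in bases) for each gene. Per the file headers, featureCounts 1.5.1 counted paired fragments over GENCODE vM3 exons with no strand or multi-mapping option. STAR 2.3.0e and build GRCm38.p3 are named in the submitters' processing notes. The table held 6 count columns of other samples, which were left out. Genes were filtered with filterByExpr (minimum count 10), leaving 13604. TMM scaling and edgeR's quasi-likelihood F test (edgeR 4.0.16, R 4.3.3) compared 3 knockout with 3 wild-type libraries without covariates, with Benjamini-Hochberg adjustment over all genes and a threshold of 0.05. Standard errors were the log2 change divided by the root of the F statistic. The test was checked on simulated data.

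CPM used TMM library sizes, and log2 CPM a prior count of 2. Near-identical copies were matches to GENCODE vM21 transcripts of at least 100 bases and 97% identity (blastn 2.17.0). Floors of 3 counts cover counting error only. Members and lists were chosen with earlier results of these data known, and the promoter words and printed promoters after results were seen. Genes named were all mitochondrially encoded members, in each complex the 3 highest nuclear subunits per kilobase and the 2 with the smallest p in each direction, the tissue isoforms with their counterparts, the Atp5g genes, and the 2 genes of each related list with the smallest p. Cox7a2l, Cox5a, Ndufs1, Ndufs7, Ndufa1 and the genes listed for the interaction or for other fits were named after their values were seen. The alternatives tried were other scalings and filters, DESeq2 1.42.0, limma-voom 3.58.1, a replicate block, a term for libraries 4, libraries 2 and 3 alone, an adjusted p under 0.1, leaving out each library and, added after the data were seen, the interaction and members without copies.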

Additional observations from a re-analysis of the deposited data

How the results depend on the processing

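Members called numbered 0 under the other scalings, a filter of 1 CPM in 3 libraries, limma-voom and an adjusted p under 0.1. They numbered 2 with no filter beyond 1 count, 2 by DESeq2, 6 with the term for libraries 4, 65 in libraries 2 and 3 alone, and 0 to 44 on leaving out 1 library, where 44 was without wild-type library 4. The complex II median was 0.35 in libraries 2 and 3 alone. On leaving out 1 library it ranged from 0.19 to 0.36, complex III from 0.11 to 0.42 and complex IV from 0.076 to 0.36, the highest without wild-type library 4. The mitochondrially encoded median ranged from 0.02 to 0.34 and the nuclear one from 0.11 to 0.36. Leaving out 1 library turned the direction of 4 of the 42 tested members named by the rules above. They were Cox8a (-0.0066 to 0.18), mt-Atp6 (-0.012 to 0.51), mt-Nd5 (-0.026 to 0.16) and mt-Nd6 (-0.022 to 0.18). Outside these 42, Ndufs1 and Ndufs7 turned from -0.01 each to 0.0063 and 0.071 without wild-type library 4. The cause was not tested. Of 670 values of the 42 members under other settings, 607 kept direction and side of the threshold and 57 passed it newly.

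The labels do not say whether library numbers pair the samples, and the correlations cannot settle it. The deviations of libraries 2, 3 and 4 correlated across genotypes at 0.0857, 0.22 and 0.394, and not every library correlated best with its own number. The libraries numbered 4 correlated at 0.394 with each other and at -0.191 to -0.345 with libraries 2 and 3 of the other genotype. Deviations sum to 0 within a genotype, so a positive value for the libraries numbered 4 forces negative ones on balance with libraries 2 and 3. The negative values are therefore no separate evidence. With a replicate block 0 members were called, and 85 genes in all against 55. Over all genes the calls numbered 262 without a filter, 349 by DESeq2, 599 with the term for libraries 4, 3307 in libraries 2 and 3 alone and 17 to 900 on leaving out 1 library. With 3 libraries per genotype, a difference smaller than the spread among wild-type libraries could not be resolved, and genes near 1 CPM or in copied sequence were the least certain.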
